A study of Mus musculus with 2 samples.

Results

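The subunit genes of the proteasome were examined in mCherry-positive cells sorted from the hearts of old p16-FDR mice. Members were all rows of the deposited single-cell table whose symbol begins with Psma, Psmb, Psmc, Psmd or Psme followed by a digit, which gave 44 of 15247 genes. These 44 comprise 8 alpha-ring genes, 7 constitutive beta-ring genes, 5 immunoproteasome genes (Psmb8, Psmb9, Psmb10, Psme1 and Psme2), 6 ATPases of the cap base, 11 other cap subunits, the 3 assembly chaperones Psmd5, Psmd9 and Psmd10, and the activators Psme3 and Psme4. The naming rule also takes in 2 genes that are not established subunits: Psmc3ip, whose protein acts in meiotic recombination, and Psme2b, an intronless near-copy of Psme2. The thymus subunit Psmb11 has 0 rows in the table.

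Only 1 group of 2 samples is described, with nothing to compare it with. All mice were C57BL/6, aged 20 to 22 months, and carried the p16-FDR construct, which joins an FLP recombinase optimised for mammals with a diphtheria toxin receptor fused to the red reporter mCherry. Cells were profiled by droplet sequencing of transcript 3' ends with unique molecular identifiers (UMIs). Each cell's name begins with Heart1 or Heart2, taken here as its library. They cannot be matched to the 2 sample records, and the labels do not say how many animals entered each sample or whether the samples came from separate animals. P-values therefore rest on how far the class difference varied between these libraries, pooled mostly over genes, and that variation may be technical. Every cell was sorted for the reporter, so no value here compares p16-expressing cells with other heart cells, and the table has 0 rows for the reporter itself.

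The proteasome is the main protease of the cytosol and nucleus and degrades proteins tagged with ubiquitin. Its core is a stack of alpha and beta rings. The alpha subunits form the gate, and the beta subunits Psmb5, Psmb6 and Psmb7 carry the chymotrypsin-like, caspase-like and trypsin-like active sites. The cap binds ubiquitin, removes it, and unfolds the substrate with its ATPases. Interferon-gamma and other immune signals induce Psmb8, Psmb9 and Psmb10, which take the places of Psmb5, Psmb6 and Psmb7 in newly made cores, and cells of the immune system also use them without such a signal. Psme1 and Psme2 form an activator ring that binds the core ends without ubiquitin. Immunoproteasomes are best known for making peptides that MHC class I molecules present.

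The start-site regions of the exchanged subunits are shown first, since Psmb8, Psmb9 and Psmb10 were the beta subunits that differed between cell classes. Their partners Psmb5, Psmb6 and Psmb7 did not pass the test. Psmb7 is not shown because it had no entry in the RefSeq table of start-site windows. Sequences are those of RefSeq, build GRCm38.p6, on the gene's strand. Capitals mark a match to a motif. The motifs searched on both strands of the 250 bases before the start were GAAANNGAA (a pair of interferon-stimulated response half-sites), TTCNNNGAA (the interferon-gamma activated site), TGACNNNGC (the antioxidant response core) and CCAAT, whose reverse is ATTGG. For Psmb8 and Psmb9 a 30-base site is printed because their whole windows lie within annotated exons of longer transcripts. For Psmb10 and Psmb5 the part outside annotated exons is printed, and for Psmb6 the whole window.
Psmb8, chr17:34198087-34198116, plus strand: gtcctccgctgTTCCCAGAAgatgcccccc
Psmb9, chr17:34187331-34187360, minus strand: cctgcaccgcgcgcagccgctgATTGGaaa
Psmb10, chr8:105938445-105938642, minus strand: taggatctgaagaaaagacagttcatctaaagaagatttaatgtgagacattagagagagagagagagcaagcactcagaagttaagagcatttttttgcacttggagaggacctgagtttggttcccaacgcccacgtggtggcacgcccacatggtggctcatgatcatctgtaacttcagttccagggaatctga
Psmb5, chr14:54618023-54618245, minus strand: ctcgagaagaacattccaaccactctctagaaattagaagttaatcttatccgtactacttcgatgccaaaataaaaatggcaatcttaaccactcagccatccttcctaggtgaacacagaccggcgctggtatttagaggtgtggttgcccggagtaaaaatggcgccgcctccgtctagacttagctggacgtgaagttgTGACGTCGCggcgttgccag
Psmb6, chr11:70525107-70525356, plus strand: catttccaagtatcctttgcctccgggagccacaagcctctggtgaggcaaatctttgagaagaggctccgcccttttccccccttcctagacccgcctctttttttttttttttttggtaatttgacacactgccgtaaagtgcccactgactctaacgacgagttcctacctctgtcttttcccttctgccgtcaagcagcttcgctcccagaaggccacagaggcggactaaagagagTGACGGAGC

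Of the 44 members, 37 had an entry in the RefSeq table of start-site windows. Psmb8 was the only member of those 37 with TTCNNNGAA, 97 bases before its start, and 7.02% of 32851 windows held that motif. GAAANNGAA was found in Psmb3, Psmd4 and Psmd9 (3 of 37), against 7.13% of all windows. TGACNNNGC lay 47 bases before the start of Psmb5 and 9 before that of Psmb6, and also in Psmc6, Psmd12 and Psmd9 (5 of 37), against 10.2% of all windows. CCAAT was found in 14 of 37, Psmb9 among them at 8 bases before the start, against 33.8% of all windows. These matches describe letters only. Psmb8 (chr17:34197721-34201454, plus strand) and Psmb9 (chr17:34181987-34187764, minus strand) are neighbours, and Psmb9 overlaps the peptide transporter gene Tap1 on the other strand by 212 bases. Psme1 (chr14:55578123-55581529) and Psme2 (chr14:55587441-55591113) also lie close together, while Psmb10 (chr8:105935735-105938444, minus strand) stands apart. An antisense gene covers 2139 bases of Psmb8 and 2710 of Psmb10, and the sources used here do not state whether counting used strand.

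Fibroblasts and macrophages were picked by markers that include no member. A gated cell had a UMI of at least 3 of 8 markers of its class (Col1a1, Col1a2, Col3a1, Dcn, Lum, Pdgfra, Dpt and Mfap5; or C1qa, C1qb, C1qc, Csf1r, Cd68, Adgre1, Fcgr1 and Lyz2), at most 1 of the other class, and fewer than 3 of each of 6 other cell type lists. Heart1 gave 200 fibroblasts and 37 macrophages of 266 cells, and Heart2 gave 928 and 202 of 1160. The summed depth was 2610796 and 8264025 UMIs for fibroblasts and 347087 and 1990689 for macrophages, so Heart1 macrophages are the least precise group. Median UMIs per cell were 11835 and 8710.5 in fibroblasts and 8133 and 9568.5 in macrophages, and the libraries shared 0 barcodes. All 8 markers of a class were detected in its own cells of both libraries. The macrophage list summed to 9.19 and 16.2 CPM (UMIs relative to all UMIs of that class and library) in fibroblasts and to 47010 and 48740 in macrophages, and the fibroblast list to 17.3 and 35.7 CPM in macrophages. The gate limits each list in the other class, so these low sums do not test how clean the classes are. Of the B cell list, 2 of 6 genes were detected in macrophages and summed to 196 and 339 CPM, against 1.53 and 0.484 in fibroblasts, while Cd79a, Ms4a1 and Pax5 were at 0 in macrophages. The granulocyte and monocyte list, of which 4 of 6 genes are in the table, summed to 158 and 28.6 CPM in macrophages and 2.3 and 3.02 in fibroblasts, with S100a8 at 0 in Heart1 macrophages and Ly6c2 and Plac8 at 0 in Heart2 macrophages. The cardiomyocyte list summed to 86.4 and 98.5 CPM in macrophages and 51.3 and 19.5 in fibroblasts. The part of these transcripts in the results was not tested. The libraries themselves stood apart. In fibroblasts of Heart1 and Heart2, 10 genes that respond to tissue dissociation summed to 6797 against 1617 CPM, and in macrophages to 6226 against 1065. Cdkn2a, the p16 gene, was counted with each cell thinned to 3000 UMIs, which misses cells whose Cdkn2a UMIs were all dropped. So counted, it was found in 16.0% against 0.323% of fibroblasts and in 29.7% against 16.8% of macrophages. All values are therefore given by library.

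Macrophages had a larger share of transcripts from 4 of the 5 immunoproteasome genes than fibroblasts, whereas 2 of the 31 tested standard subunits differed, both higher in fibroblasts. The 3 immunoproteasome beta subunits together reached 207 CPM in Heart1 fibroblasts and 230 in Heart2 fibroblasts, against 545 and 588 in macrophages. The 32 standard subunits (alpha ring, constitutive beta ring, base and cap) summed to 4728 and 4490 CPM in fibroblasts and to 4319 and 3912 in macrophages, lower in each library. By limma on log2(CPM + 5) with library as a block, 7 of the 43 members that passed the filter of a mean of 10 CPM were called at an adjusted p under 0.05. Over all 8793 genes tested 42.0% were called, so the members' share (16.3%) was below the background. Of the 7, Psmb8, Psmb9, Psmb10, Psme1 and Psme2b were higher in macrophages (16.8% of all genes) and Psmd7 and Psmd11 in fibroblasts (25.3% of all genes). With median ratio scaling or no library block Psmd11 was lost, which left 1 call on the fibroblast side and 5 on the macrophage side. The median difference, fibroblasts minus macrophages, was 0.10 on the log2 scale over members, 0.12 over the standard subunits and 0.16 over all genes tested. The 4 sums leave 1 residual degree of freedom, so the error of a gene comes mostly from the spread of other genes.

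**Figure D1:**
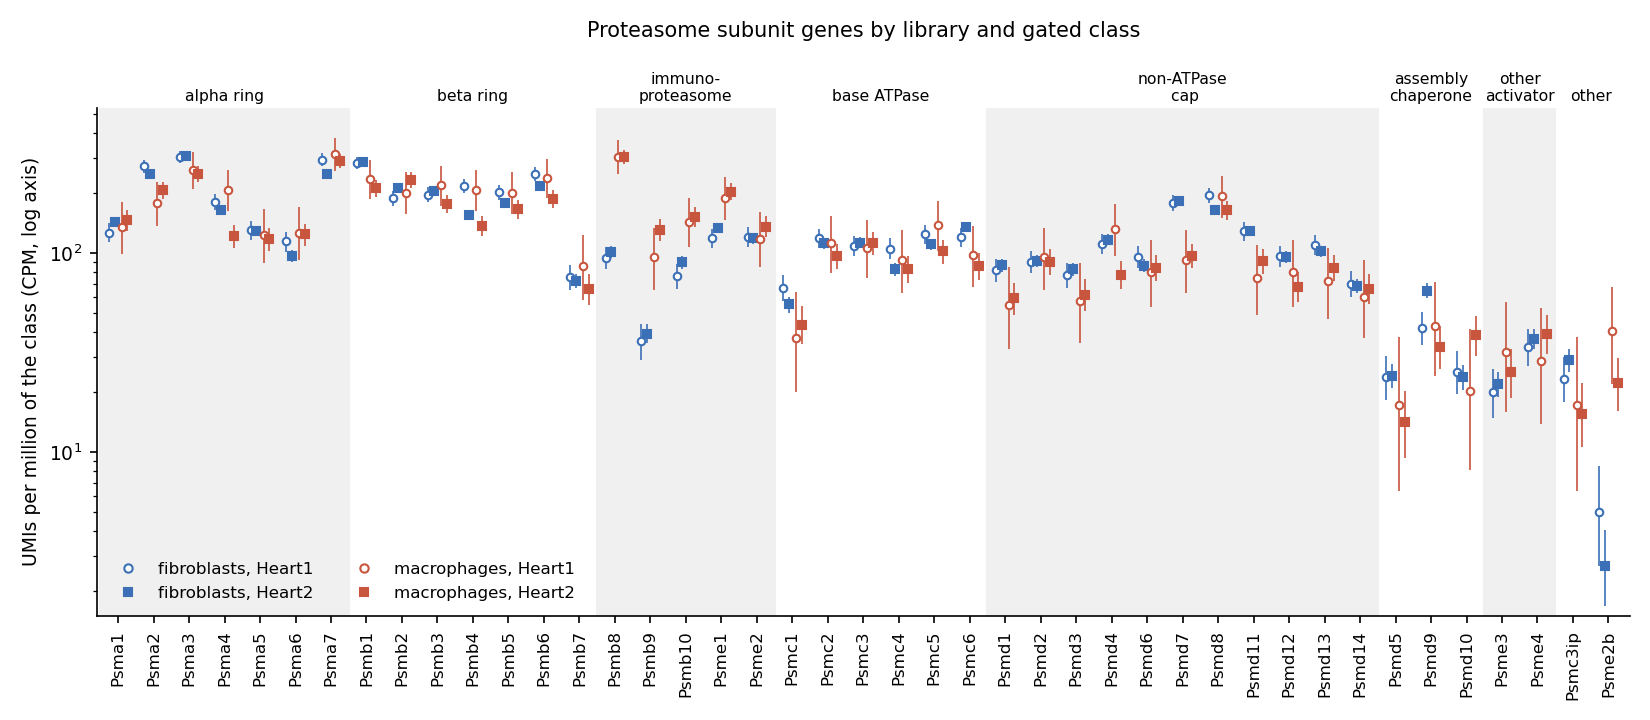
Level of the 43 tested members (CPM, log axis) in gated fibroblasts (blue) and macrophages (red), Heart1 as open circles and Heart2 as filled squares, with exact Poisson 95% intervals (counting error only). The red points lie above the blue ones for Psmb8, Psmb9, Psmb10, Psme1 and Psme2b, and below them for Psmd7 and Psmd11. Some members that were not called are also separated, such as Psma6 (red above) and Psma2 (red below).

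Psmb8, the counterpart of Psmb5, showed the difference most firmly. It stood at 94.2 and 101 CPM in fibroblasts of Heart1 and Heart2 and at 305 CPM in macrophages of each library. The groups did not overlap, which also held for members not called, such as Psma2 and Psma6. The share of all genes without overlap was not counted, so with 2 values a side no weight is put on it here. For Psmb8 the libraries were nearly equal within each class. The log2 difference was -1.60 ± 0.19 (limma SE, 2 libraries, error pooled mostly over genes), 3.02-fold higher in macrophages (limma adjusted p = 1.23e-05). Psmb9, the counterpart of Psmb6, was at 36.0 and 39.3 CPM in fibroblasts and at 95.1 and 131 CPM in macrophages. Its macrophage value was higher in Heart2 than in Heart1. The log2 difference was -1.45 ± 0.23 (limma adjusted p = 0.000165), and with every cell thinned to 3000 UMIs it was -0.97 (limma adjusted p = 0.0445). Psmb10, which replaces Psmb7, moved less. It was at 76.6 and 89.8 CPM in fibroblasts and at 144 and 152 CPM in macrophages. The log2 difference was -0.80 ± 0.21 (limma adjusted p = 0.00694), and with thinned cells it was -0.60 (limma adjusted p = 0.129).

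The activator genes divided. Psme1 was at 119 and 134 CPM in fibroblasts and at 190.2 and 203 CPM in macrophages, a log2 difference of -0.62 ± 0.20 (limma adjusted p = 0.0202). Psme2, whose protein shares the ring with that of Psme1, was at 121 and 119 CPM in fibroblasts and at 118 and 136 CPM in macrophages. These values overlapped, and the log2 difference of Psme2 was -0.08 with a 95% interval of -0.53 to 0.36 (limma adjusted p = 0.793). Psme2b was at 4.98 and 2.66 CPM in fibroblasts, from 13 and 22 UMIs, and at 40.3 and 22.1 CPM in macrophages, from 14 and 44 UMIs. Its log2 difference was -2.0 ± 0.35 (limma adjusted p = 0.000309), and this scale understates the change of so low a gene. Psme2b (chr11:48945354-48946190, minus strand) shares 73.2% of the 25-base words in the last 300 bases of the Psme2 transcript Psme2-201, so the split of reads between the copies is uncertain. Taken as a sum, Psme2 and Psme2b reached 126 and 121 CPM in fibroblasts and 158 CPM in macrophages of each library, a log2 difference of -0.35 ± 0.03 (SD of 2 libraries; computed after the values were seen). Psme2b also lies within another gene on its own strand, Gm12185, over 837 bases.

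Of the other activators, Psme3, which forms a nuclear ring without ubiquitin, was at 19.9 and 21.9 CPM in fibroblasts and 31.7 and 25.1 CPM in macrophages. Its log2 difference was -0.36 ± 0.28 (limma adjusted p = 0.341). Psme4, a large single-chain activator linked to histone turnover, was at 33.7 and 36.9 CPM in fibroblasts and 28.8 and 39.2 CPM in macrophages, and those ranges overlapped (0.06 ± 0.26 on the log2 scale, limma adjusted p = 0.884). So of the 4 activator genes that are established subunits, Psme1 was the only one called.

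At least 2-fold in both libraries, with no test, were 3 members: Psmb8, Psmb9 and Psme2b, all higher in macrophages, where 10.9% of all genes tested passed that rule. With thinned cells Psmb9 no longer passed it. No member was at least 2-fold higher in fibroblasts in both libraries (0 of 43, against 14.9% of all genes). Ignoring size, 23 members were higher in fibroblasts in both libraries (48.2% of all genes) and 10 were higher in macrophages in both (31.3% of all genes).

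**Figure D2:**
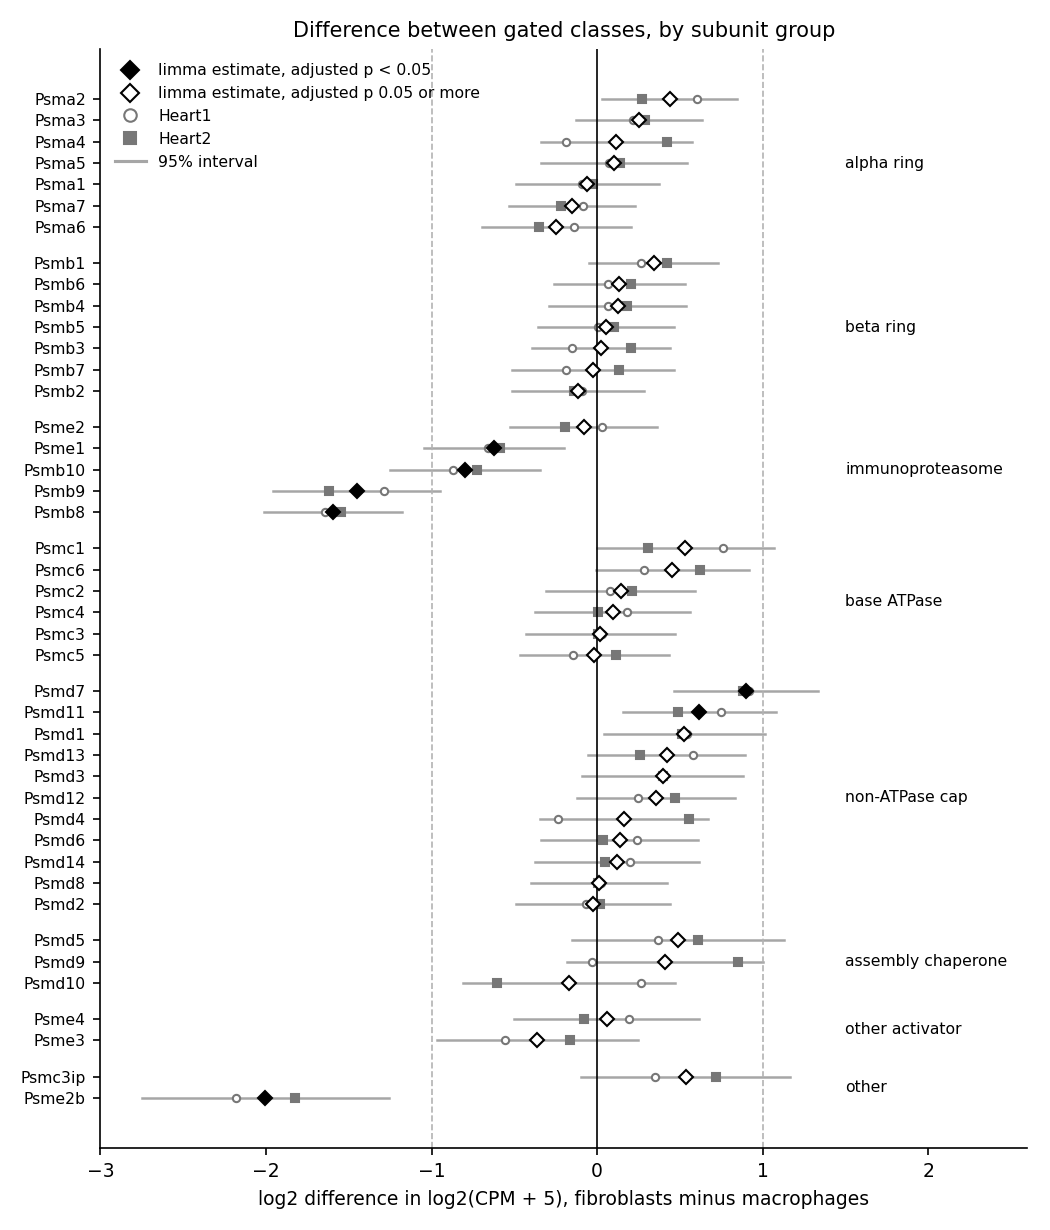
Difference in log2(CPM + 5), fibroblasts minus macrophages, for the 43 tested members by group: diamonds are limma estimates (black where adjusted p is under 0.05), lines their 95% intervals, open circles Heart1 and grey squares Heart2; dashed lines mark 2-fold. Psmb8 and Psmb9 lie beyond the dashed line at -1 in both libraries, and the alpha ring, beta ring and base lie within 2-fold.

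Levels of different genes are not ranked here, since capture of 3' ends differs between genes, but a ratio of the same pair of genes can be compared between classes. The ratio of Psmb8 to Psmb5 UMIs was 0.465 in Heart1 fibroblasts and 0.564 in Heart2 fibroblasts, and 1.51 and 1.83 in macrophages. The macrophage ratio was higher by 1.70 on the log2 scale in each library, though by 2.07 and 1.59 with the stricter gate and 2.44 and 1.58 with thinned cells. The ratio of Psmb9 to Psmb6 was 0.144 and 0.181 in fibroblasts and 0.398 and 0.70 in macrophages, higher by 1.47 in Heart1 and 1.95 in Heart2, and by 0.74 and 1.45 with thinned cells. The ratio of Psmb10 to Psmb7 was 1.02 and 1.24 in fibroblasts and 1.67 and 2.31 in macrophages, higher by 0.71 and 0.90. All 3 pairs thus shifted toward the immunoproteasome gene in macrophages of both libraries. For Psmb10 to Psmb7 in Heart1 the counting intervals of the classes overlapped (0.830 to 1.24 in fibroblasts, 1.04 to 2.71 in macrophages, from 50 and 30 UMIs). A ratio of transcripts does not give the ratio of assembled subunits, and no protein was measured.

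**Figure D3:**
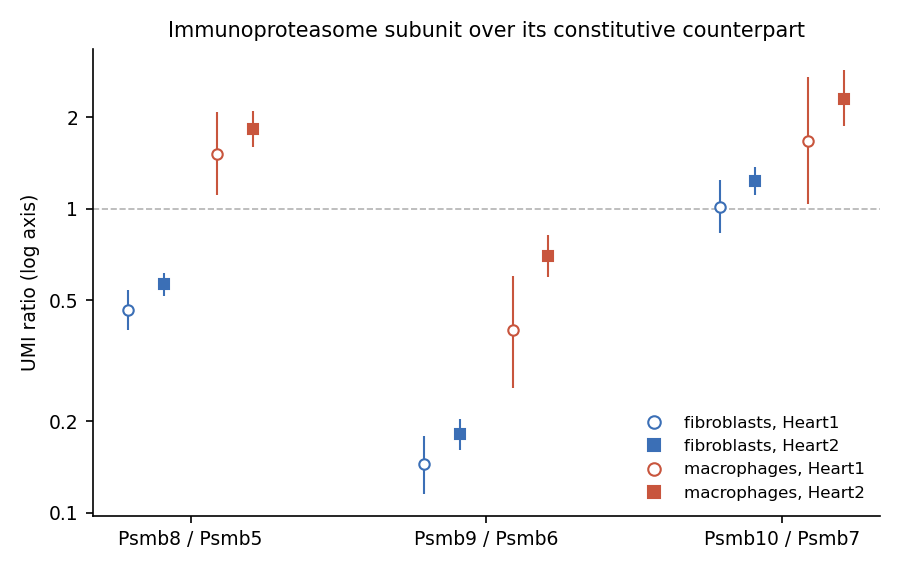
UMI ratio of each immunoproteasome beta subunit to its constitutive counterpart (log axis) in fibroblasts (blue) and macrophages (red), Heart1 open and Heart2 filled, with exact 95% intervals for counting error; the dashed line marks equal counts. In macrophages the Psmb8 to Psmb5 ratio is 1.51 and 1.83, and in fibroblasts 0.465 and 0.564.

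The difference was also seen as a share of cells, with each cell thinned to 3000 UMIs to equalise depth. A Psmb8 UMI was found in 24.0% of Heart1 fibroblasts (exact Clopper-Pearson 95% interval 18.3 to 30.5%) and 24.8% of Heart2 fibroblasts (22.0 to 27.7%). In macrophages the share was 70.3% (53.0 to 84.1%) and 58.4% (51.3 to 65.3%). For Psmb9 the shares were 9.50% and 10.2% in fibroblasts and 18.9% and 26.7% in macrophages, and the Heart1 intervals overlapped (5.82 to 14.4% against 7.96 to 35.2%). Psmb10 was found in 23.0% and 23.7% of fibroblasts and in 43.2% and 33.2% of macrophages, with overlapping intervals in Heart1 (17.4 to 29.5% against 27.1 to 60.5%). Psme1 was found in 28.5% and 33.0% of fibroblasts and in 51.4% and 46.5% of macrophages, with intervals that overlapped narrowly in Heart1. Psme2 was at 32.0% and 30.6% in fibroblasts and 27.0% and 31.2% in macrophages. Psmb5 was found in 46.0% and 41.2% of fibroblasts and 35.1% and 41.6% of macrophages, with no such gap. Unthinned, Psmb8 was found in 63.0% and 53.0% of fibroblasts and in 94.6% and 90.6% of macrophages. The macrophage gene Ctss, which the gate does not use, was found in 0 of 200 thinned Heart1 fibroblasts, which allows a share of up to 1.5%. In Heart2 fibroblasts the share was 0.108%. Ctss was found in 100% and 98.5% of macrophages. The gate leaves out fibroblasts with more than 1 macrophage marker, and the part of free RNA in the fibroblast shares was not tested. Any UMI of the 3 immunoproteasome beta genes was found in 45.5% and 45.7% of thinned fibroblasts and in 83.8% and 76.7% of thinned macrophages.

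The alpha ring, which controls entry to the core, had no called gene, which does not show that the classes were equal. Its 8 genes summed to 1428 and 1344 CPM in fibroblasts and 1348 and 1263 in macrophages. Of the 7 tested, 0 were called, against 42.0% of all genes, and 1 had an unadjusted p under 0.05. Psma2 had the largest difference, with 273.9 and 251 CPM in fibroblasts and 179 and 207 in macrophages (0.44 ± 0.19, limma adjusted p = 0.0801). Its 95% interval, not adjusted over genes, was 0.03 to 0.85. The gene overlaps another gene on its own strand over 8943 bases. Psma3 was at 305 and 307 CPM in fibroblasts and 262 and 251 in macrophages. Psma6 was at 115 and 96.3 CPM in fibroblasts and 127 and 124 in macrophages, and Psma7 at 296 and 250.1 against 314 and 292. The remaining Psma1, Psma4 and Psma5 differed by -0.06, 0.12 and 0.10 on the log2 scale. Psma8, a subunit of germ cells, had 2 and 9 UMIs in fibroblasts and 0 and 9 in macrophages. It did not pass the filter, and 0 UMIs in Heart1 macrophages allow up to 8.64 CPM by the limit of 3 counts (10.6 by the exact Poisson 95% interval).

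The constitutive beta ring had no called gene either. Its 7 genes summed to 1416 and 1329 CPM in fibroblasts and 1392 and 1180 in macrophages. Of the 7, 0 were called, against 42.0% of all genes, and 0 had an unadjusted p under 0.05. The catalytic Psmb5 was at 203 and 179.7 CPM in fibroblasts and 202 and 167 in macrophages. Its log2 difference was 0.06 with a 95% interval of -0.35 to 0.47, and it was -0.04 under median ratio scaling. Psmb6 was at 250.1 and 217 CPM against 239 and 187, an interval of -0.26 to 0.53 on the log2 scale. Psmb7 was at 75.5 and 72.7 CPM against 86.4 and 65.8, an interval of -0.52 to 0.47. For these 3 genes the intervals exclude a 2-fold change in either direction. Among the structural subunits, Psmb1 was at 285 and 286 CPM in fibroblasts and 236 and 213 in macrophages (0.34 ± 0.18, limma adjusted p = 0.149), Psmb4 at 218 and 156 against 207 and 137, and Psmb2 at 189 and 212 against 202 and 234. Psmb3 differed by 0.03. Psmb4 was higher in Heart1 than in Heart2 in each class, by 0.47 in fibroblasts and 0.58 in macrophages on the log2 scale, more than its difference between classes (0.12).

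The 6 ATPases of the base, which pull substrates into the core, summed to 645 and 610 CPM in fibroblasts and 585 and 523 in macrophages. None of the 6 was called by limma, against 42.0% of all genes, and 0 had an unadjusted p under 0.05. Ignoring size, 5 of the 6 were higher in fibroblasts in both libraries, against 48.2% of all genes. Psmc1 was at 67.0 and 55.2 CPM in fibroblasts and 37.4 and 43.7 in macrophages (0.53 ± 0.25, limma adjusted p = 0.104). With a stricter gate Psmc1 reached 0.75 (limma adjusted p = 0.0405) and with thinned cells 1.29 (limma adjusted p = 0.0369), the latter from fewer UMIs. Psmc6 was at 120 and 135 CPM against 98.0 and 85.9 (0.45 ± 0.21, limma adjusted p = 0.109). Psmc2 was at 119 and 112 CPM against 112 and 96.4, and Psmc4 at 105 and 83.3 against 92.2 and 82.9. Psmc3 and Psmc5 differed by 0.02 and -0.02.

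Of the 4 groups of standard subunits, the non-ATPase cap had the largest median difference, toward fibroblasts. Its 11 genes summed to 1239 and 1208 CPM in fibroblasts and 994 and 944 in macrophages. The median difference was 0.36 on the log2 scale against 0.16 over all genes. Ignoring size, 9 of 11 were higher in fibroblasts in both libraries, against 48.2% of all genes. Psmd7, the partner of the deubiquitinase Psmd14 in the lid, was at 179 and 183 CPM in fibroblasts and at 92.2 and 97.0 CPM in macrophages. Its log2 difference was 0.90 ± 0.20 (1.87-fold, limma adjusted p = 0.00244, and 0.0508 with thinned cells). Psmd14 itself was at 70.1 and 68.6 CPM against 60.5 and 66.3 (0.12 ± 0.23, limma adjusted p = 0.718). Psmd11, a scaffold subunit of the lid, was at 129 and 130 CPM in fibroblasts and at 74.9 and 90.9 CPM in macrophages, a log2 difference of 0.62 ± 0.21 (limma adjusted p = 0.0323). Its call ended with no library block (limma adjusted p = 0.0548) and with median ratio scaling (0.09). Psmd1, a large scaffold of the base, was at 82.0 and 86.8 CPM against 54.7 and 59.3 (0.53 ± 0.23, limma adjusted p = 0.0793). Psmd13, Psmd3 and Psmd12, which build the lid, differed by 0.42, 0.40 and 0.36 and were not called. Psmd4, a ubiquitin receptor, was at 112 and 117 CPM in fibroblasts and at 132 and 77.9 CPM in macrophages, so the libraries disagreed in sign. Psmd6, Psmd8 and Psmd2 differed by 0.14, 0.01 and -0.03.

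The 3 chaperones that assemble the base were low, at 91.2 and 113 CPM in all in fibroblasts and 80.7 and 86.4 in macrophages. Of the 3, 0 were called, against 42.0% of all genes, and 0 had an unadjusted p under 0.05. Psmd5 was at 23.8 and 24.1 CPM in fibroblasts and 17.3 and 14.1 in macrophages (0.49 ± 0.30, limma adjusted p = 0.213). Psmd9 and Psmd10 had opposite signs in the libraries: Psmd9 differed by -0.03 in Heart1 and 0.85 in Heart2, and Psmd10 by 0.27 and -0.61. Psmc3ip, not a subunit, differed by 0.53 ± 0.29 (limma adjusted p = 0.167).

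Between Heart1 and Heart2, 0 of 43 members were 2-fold apart in fibroblasts, against 3.63% of all genes tested. In macrophages it was 0 of 43, against 8.13%. At such shares few of 43 members would pass, so these counts do not set the members apart. The median absolute difference between libraries was 0.11 for members in fibroblasts and 0.22 for all genes, and 0.21 and 0.32 in macrophages. Members and all genes were not matched for level, on which counting error depends. The members farthest apart were Psmd9 in fibroblasts (-0.57, Heart1 minus Heart2) and Psmd10 (-0.80) and Psma4 (0.75) in macrophages. There is 1 library of each prefix and no test. Cdkn2a and the dissociation genes differed between the libraries as given above, and their part in the levels of the members was not tested.

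Within each class, cells of 1 library were split by other genes as a description with no test, thinned to 3000 UMIs. Macrophages with at least 3 of the MHC class II genes H2-Aa, H2-Ab1, H2-Eb1 and Cd74, which present antigen to helper T cells, were compared with those with at most 1. In Heart2, Psmb8 was at 356 CPM in the 130 cells with these genes (exact Poisson 95% interval 299.6 to 421) and at 220.1 CPM in the 53 without (153 to 306). In Heart1 it was at 431 CPM in 24 cells and 250 CPM in 12, and the intervals overlapped in both libraries. Psme1 ran the same way, at 244 against 169.8 CPM in Heart2 and 264 against 167 in Heart1, with overlapping intervals. Psmb10 did not, at 136 against 182 CPM in Heart2 and 139 CPM in both sets of Heart1. The libraries disagreed in direction for Psmb9, at 118 against 81.8 CPM in Heart2 and 41.7 against 111 in Heart1, and for Psme2, at 126 against 113 and 97.2 against 111. The standard subunits together were lower in the cells with MHC class II genes, at 3774 against 4478 CPM in Heart2 and 3306 against 4472 in Heart1. The cells with MHC class II genes were also shallower before thinning, with medians of 8468 against 11759 UMIs in Heart2 and 6986.5 against 13123 in Heart1, and the part of depth in these values was not tested.

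Fibroblasts with at least 3 of 12 interferon-induced genes (Ifit1, Isg15, Irf7 and 9 others) were compared with those with at most 1. In Heart2 the 199 fibroblasts with these genes had 131 CPM of Psmb8 against 87.5 in the 415 without, 57.0 against 28.9 of Psmb9, and 174 against 122 of Psme1. The 3 immunoproteasome beta genes together reached 299.8 CPM (257 to 347) against 203 (179 to 229.9), intervals that did not overlap, while those of Psmb8, Psmb9, Psmb10 and Psme1 each overlapped. The standard subunits stood at 4516 against 4344 CPM, with overlapping intervals. In Heart1, with 38 and 100 fibroblasts, Psmb9 was at 87.7 against 23.3 CPM (42.1 to 161 and 9.38 to 48.1, overlapping), and the 3 immunoproteasome beta genes together were at 263 against 223 CPM, also with overlapping intervals. Psmb8 ran the other way in Heart1, at 70.2 against 117 CPM with overlapping intervals, so the pattern of Psmb8 was not shared by the libraries. Median depths were 12266.5 and 11391.5 UMIs in Heart1 and 8486 and 8536 in Heart2.

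**Figure D4:**
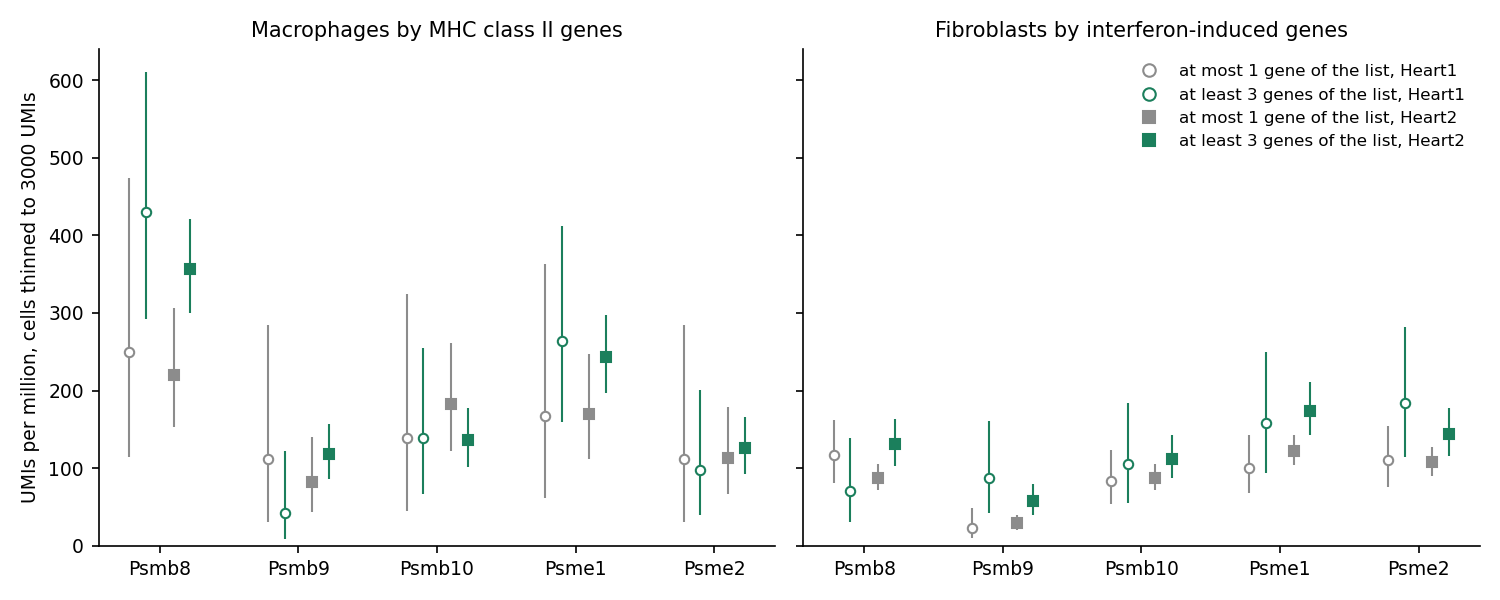
CPM of the 5 immunoproteasome genes in macrophages with at least 3 (green) or at most 1 (grey) of 4 MHC class II genes, left, and in fibroblasts by 12 interferon-induced genes, right; Heart1 open circles, Heart2 filled squares, exact Poisson 95% intervals, cells thinned to 3000 UMIs. Psmb8 in Heart2 macrophages is at 356 against 220.1 CPM, and Psmb9 in Heart2 fibroblasts at 57.0 against 28.9.

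Cells with a thinned UMI of Cdkn2a were also set beside those without. In Heart1 fibroblasts the 3 immunoproteasome beta genes were at 292 CPM in 32 cells with Cdkn2a (194 to 421) and at 220.2 in 168 without (181 to 265). In macrophages they were at 485 against 603 CPM in Heart1 (11 and 26 cells) and at 480.4 against 575 in Heart2 (34 and 168 cells). All of these intervals overlapped. Heart2 fibroblasts had 3 cells with Cdkn2a, too few to compare. A cell without a UMI after thinning may still express the gene, and all cells were sorted for the reporter.

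Genes that work with the proteasome were read from a list, of which 10 of the 34 tested were called (29.4%, against 42.0% of all genes). Of 11 assembly and cap partners, 2 were higher in macrophages and 1 in fibroblasts. Sem1, the small cap subunit, was at 443 and 430.5 CPM in fibroblasts and 596 and 649 in macrophages (-0.51 ± 0.16, limma adjusted p = 0.0202). Pomp, which helps new cores mature, was at 233 and 196 CPM against 279.5 and 336 (-0.51 ± 0.19, limma adjusted p = 0.0475). Adrm1, a ubiquitin receptor docked on Psmd1, was at 78.1 and 80.0 CPM in fibroblasts and 40.3 and 57.8 in macrophages (0.66 ± 0.24, limma adjusted p = 0.0407). Of 7 regulators, 1 was called: Nfe2l1, the transcription factor that raises subunit genes when proteasome activity falls, at 114 and 97.9 CPM in fibroblasts and 49.0 and 54.2 in macrophages (0.97 ± 0.23, limma adjusted p = 0.00344). None of the 4 ubiquitin genes was called (0 at an unadjusted p under 0.05).

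Of 12 tested genes of peptide loading and interferon response, 5 were higher in macrophages (16.8% of all genes) and 1 in fibroblasts (25.3% of all genes), so 6 of 12 were called against 42.0% of all genes. H2-D1, an MHC class I heavy chain, was at 848 and 1219 CPM in fibroblasts and 3169 and 2678 in macrophages (-1.51 ± 0.17, limma adjusted p = 4.43e-06). B2m, the light chain, was at 528 and 751 CPM against 1602 and 1509 (-1.30 ± 0.16, limma adjusted p = 1.72e-05), and H2-K1 was also higher in macrophages (-0.84 ± 0.15). Tap1, the neighbour of Psmb9 that carries peptides into the endoplasmic reticulum, was at 13.4 and 22.5 CPM in fibroblasts and 40.3 and 50.7 in macrophages (-1.16 ± 0.27, limma adjusted p = 0.00304). Irf8, a transcription factor of myeloid cells, was at 37.1 and 29.4 CPM against 184 and 190.4 (-2.34 ± 0.23, limma adjusted p = 1.28e-06). Pdia3, a chaperone of the loading complex, was higher in fibroblasts (0.56 ± 0.17, limma adjusted p = 0.0179). Irf1, a transcription factor induced by interferon, was not called (0.11 ± 0.29, limma adjusted p = 0.793).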

How the data were processed

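The values the authors deposited, for 15247 genes in 1426 cells, are natural log values of each cell's UMIs scaled to 10000, with 1 added. The unit was read from the values: every cell summed to 10000 once the log was undone, and all 4459440 values above 0 were whole multiples of their cell's lowest within 1e-06, so UMI counts were recovered. Cell Ranger 3.0.2 and mm10 are named in the submitters' processing notes; the normalizing tool and cell filters were not given in the sources used here. All columns of cells were used (0 left out). UMIs were summed per library and gated class, scaled to CPM and tested with limma 3.58.1 (R 4.3.3) on log2(CPM + 5), with library as a block, a mean-variance trend, a mean of 10 CPM or more, and Benjamini-Hochberg adjustment over 8793 genes. The script was tested on simulated data. No count model was run, since the deposited unit is a log value. No doublet caller was run; 2 Heart1 and 16 Heart2 cells with markers of both classes stayed outside the gate. Intervals of CPM, shares of cells and UMI ratios cover counting error only. Intervals of log2 differences are those of limma. Alternatives were the block, pseudocount, filter, scaling, gate, depth and each library alone. The naming rule gave levels for the immunoproteasome genes, their counterparts, every called member and up to 4 members of each group with the largest difference. Members and lists were chosen with earlier results of these data known. Gene positions are from GENCODE vM21 (GRCm38).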

Additional observations from a re-analysis of the deposited data

How the results depend on the processing

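The calls of Psmb8, Psmb9, Psme1 and Psme2b were kept under all 9 alternative fits, with adjusted p-values by limma of 7.66e-07 to 0.000941, 6.78e-05 to 0.0445, 0.0133 to 0.0428 and 0.000133 to 0.00647. Psmb10 and Psmd7 were lost only with cells thinned to 3000 UMIs, which leaves 111000 UMIs in Heart1 macrophages. Members called higher in fibroblasts numbered 1 rather than 2 with no library block and with median ratio scaling, both through the loss of Psmd11. The counts of members at least 2-fold apart in both libraries stayed between 2 and 3, but not always through the same genes: with a pseudocount of 20 Psme2b dropped out, and with thinned cells Psmb9 dropped out (-0.97) and Psmc3ip entered, higher in fibroblasts (1.52). The count was 3 from either library alone.

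The differences of 26 members, every called one among them, were followed across the alternatives. Those that changed sign were all of members not called. The remaining members were not followed. With thinned cells Psme2 was at 0.12, Psma6 at 0.07, Psmb2 at 0.28, Psme3 at 0.12 and Psme4 at -0.14. Psmb5 and Psme4 were at -0.038 and -0.024 with median ratio scaling, and Psmb7 was at 0.094 with the strict gate. From 1 library alone, Psme2 was at 0.03 in Heart1, Psmb7 at 0.13 in Heart2 and Psme4 at -0.08 in Heart2. The cause was not tested. The log2 gain of the macrophage ratio with thinned cells was 2.01 for Psmb8 to Psmb5, 1.10 for Psmb9 to Psmb6 and 0.61 for Psmb10 to Psmb7. With the strict gate it was 1.83 for Psmb8 to Psmb5 and 1.02 for Psmb10 to Psmb7, against 1.70 and 0.81 with the main gate. The loose gate left Psmb8 to Psmb5 at 1.70. For that pair the SD of the 2 libraries was 0.003, too small to serve as a measure of a shift. Leaving a library out of the limma fit leaves no residual degrees of freedom. Heart1 macrophages (37 cells) limit the comparisons between classes.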
